A study of Homo sapiens with 8 samples.

Results

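HoxC5 binding was compared in PC-3 cells, an established human prostate cancer line, between control cells, where only the cell's own HoxC5 is present, and cells transduced with a lentivirus that expresses Flag-tagged HOXC5. The sites were the ChIP-Seq peaks of 2 endogenous libraries (replicates 1 and 2, genotype control) and of 1 library of the overexpressing cells, all on chromosomes 1-22 and X. The 2520 peaks of replicate 1 and the 170 peaks of replicate 2 merged into 2555 endogenous sites. A site that shared at least 1 bp with an overexpressed peak was called kept, and the others lost, while an overexpressed peak that touched no endogenous site was called gained. This gave 1957 kept sites, 598 lost sites and, of the 67169 overexpressed peaks, 65217 gained peaks, so that 67772 regions are described here of the 223511 peaks that all lists of the series hold as deposited. The series also holds a library of Pbx4 in cells that overexpress Pbx4, which serves below as a second readout, while its 4 input libraries played no part here. The antibody was directed against HoxC5 and not against the tag, so the overexpressed library draws on endogenous and introduced protein together.

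HoxC5 is a homeodomain protein of the HOXC cluster. Hox proteins pattern the body axis of the embryo, and their homeodomains alone read short sites rich in A and T. With the TALE homeodomain partners Pbx and Meis they read longer composite sites, in which the Pbx part and the Hox part lie side by side. Active promoters and enhancers of epithelial cancer cells also carry sites of broadly used factors, such as AP-1 (dimers of Fos and Jun proteins), TEAD and forkhead factors, and CpG-rich promoters carry GC boxes for Sp/KLF proteins.

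A few sequences at summits, picked from the named sites for the words they hold, show what the words described below look like in place; they are examples and say nothing of how often a set holds a word. Each run below is the plus strand of GRCh37 (hg19) within 50 bp of a summit in lower case, with the words that were sought in capitals: the AP-1 word TGACTCA, the Hox-Pbx composite word TGATTNAT (N is any base), the Hox word TAATGA, the Meis word TGACAG, the E-box CAGGTG, the GC box CCCCGCCC and the TEAD word CATTCC, each on either strand. Word matches overlap in places, for example where a Meis word runs into a Hox-Pbx word. The first runs are kept sites that both endogenous replicates called, chosen by replicate 1 fold, and they show AP-1 words at CCNF (chr16:2438978-2439078) and upstream of SLC12A7 (chr5:1113228-1113328) and GC boxes at the promoters of SEPTIN9 (chr17:75277371-75277471) and SYPL1 (chr7:105752773-105752873).
CCNF, kept: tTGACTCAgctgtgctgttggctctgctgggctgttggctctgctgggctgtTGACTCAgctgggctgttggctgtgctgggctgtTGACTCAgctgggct
SLC12A7, kept: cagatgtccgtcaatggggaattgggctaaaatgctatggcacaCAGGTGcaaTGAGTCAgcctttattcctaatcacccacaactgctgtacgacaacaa
SEPTIN9, kept: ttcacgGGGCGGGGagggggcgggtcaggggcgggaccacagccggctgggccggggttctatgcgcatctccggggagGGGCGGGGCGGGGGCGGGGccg
SYPL1, kept: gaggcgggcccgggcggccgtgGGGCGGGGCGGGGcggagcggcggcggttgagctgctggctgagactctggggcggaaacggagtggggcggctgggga

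The next runs are lost sites that both replicates called, without an AP-1 word. They show E-boxes in an intron of LFNG (chr7:2563963-2564063), a GC box at the promoter of IGSF8 (chr1:160068482-160068582), and a Hox word in an intron of APOLD1 (chr12:12929393-12929493).
LFNG, lost: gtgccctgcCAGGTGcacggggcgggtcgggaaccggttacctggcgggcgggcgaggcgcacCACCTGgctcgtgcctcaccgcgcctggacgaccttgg
IGSF8, lost: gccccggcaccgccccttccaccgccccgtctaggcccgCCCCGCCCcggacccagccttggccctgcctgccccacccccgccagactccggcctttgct
APOLD1, lost: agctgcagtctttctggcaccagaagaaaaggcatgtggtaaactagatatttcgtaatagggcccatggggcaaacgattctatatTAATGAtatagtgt

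The last runs are gained peaks among the 12 of highest fold, shown because each holds the Hox-Pbx word. They lie upstream of TGM2 (chr20:36812722-36812822), in introns of LUZP2 (chr11:25087330-25087430) and EGF (chr4:110842624-110842724), far upstream of GRAMD2B (chr5:124895110-124895210) and at the promoter of CHD1 (chr5:98265372-98265472).
TGM2, gained: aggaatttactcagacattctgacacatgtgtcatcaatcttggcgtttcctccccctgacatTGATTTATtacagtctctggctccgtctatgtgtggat
LUZP2, gained: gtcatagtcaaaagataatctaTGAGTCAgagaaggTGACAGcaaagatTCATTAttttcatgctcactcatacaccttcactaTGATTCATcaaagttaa
EGF, gained: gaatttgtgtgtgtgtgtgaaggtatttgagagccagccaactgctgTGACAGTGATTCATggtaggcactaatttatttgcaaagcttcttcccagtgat
GRAMD2B, gained: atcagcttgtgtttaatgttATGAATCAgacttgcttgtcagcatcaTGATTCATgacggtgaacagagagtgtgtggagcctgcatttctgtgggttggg
CHD1, gained: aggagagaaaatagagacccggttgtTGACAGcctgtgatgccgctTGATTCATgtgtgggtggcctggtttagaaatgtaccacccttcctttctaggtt

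Of the merged endogenous sites, 76.6% were kept (95% exact Clopper-Pearson interval 74.9 to 78.2%, n = 2555). Replicate 1 alone had 1928 of its 2520 peaks kept (76.5%) and replicate 2 had 145 of 170 (85.3%, interval 79.1 to 90.3%). Both replicates called 135 of the merged sites, of which 117 were kept and 18 lost. Replicate 1 alone called 2385 sites (1811 kept) and replicate 2 alone 35 (29 kept). Seen from the other side, 97.1% of the overexpressed peaks were gained and 2.91% met an endogenous site. With 1 overexpressed library there is no spread between replicates on that side and no test of any difference below, and all intervals cover counting error only. The lists were unequal in length and in threshold: the highest q-value was 0.00997 in the overexpressed list, 0.0398 in replicate 1 and 0.0499 in replicate 2. They hold no read totals, so a site that was newly bound cannot be told apart from one that a deeper or cleaner library brought over its threshold, and a gained peak is one that the endogenous lists did not call.

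The strongest endogenous sites that both replicates called were not the strongest sites after overexpression. The site of highest fold enrichment (the signal at the summit over the local background) in replicate 1 lay in a non-coding gene 40.4 kb upstream of CCNF, the gene of cyclin F (chr16:2438848-2439217). Its fold was 39.8 in replicate 1, 12.04 in replicate 2 and 7.45 in the overexpressed library, where it ranked 21425 by fold among all 67169 peaks. The window at this summit is a tandem repeat, 91.0% identical to itself when shifted. In an intron of FARP1, a guanine nucleotide exchange factor (chr13:99068611-99069097), the fold was 32.0, 7.51 and 3.78 in the same order. At the promoter of SEPTIN9, a GTP-binding cytoskeletal protein, the summit lay 112 bp upstream of the start site (chr17:75277207-75277663), and the folds were 23.1, 20.9 and 5.002. At the promoter of SYPL1, a synaptophysin-like membrane protein (chr7:105752678-105753043), they were 19.7, 19.5 and 6.40. Neither of these promoters touched a Pbx4 peak.

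A site in an intron of ITPA, which clears inosine triphosphate (chr20:3203423-3203812), stood apart among the 12 strongest kept sites. Its folds were 21.9, 5.49 and 17.6, and it ranked 845 in the overexpressed list. The site 1.10 kb upstream of SLC12A7, a potassium-chloride cotransporter (chr5:1113104-1113418), had folds of 20.7, 8.60 and 11.2. Over all 12, the overexpressed fold ran from 3.18 at STMN3, a stathmin that binds tubulin, to 17.6 at ITPA, below the replicate 1 fold at each of them. These 12 were chosen for a high replicate 1 fold, so the other libraries lie below it by the choice, as replicate 2 does at each. Over all kept sites the median fold was 4.93 in replicate 1 and 7.95 after overexpression.

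Kept promoters in both replicates numbered 25, and histone genes were frequent among them. Of 64 replication-dependent histone genes in a fixed list, whose products package newly replicated DNA, 9 had a kept promoter site (14.1%), against 2.28% of all 19748 protein-coding genes. Both replicates called the sites at 5 of these genes and at HIST1H4B, an H4 gene under an older symbol that the list does not hold, named after its values were seen. H4C3 had folds of 9.74 in replicate 1, 6.36 in replicate 2 and 18.1 after overexpression. H4C5 had 12.2, 12.1 and 13.0. H2BC4, with a summit 849 bp downstream of a start site, had 10.3, 11.3 and 12.6. H4C8 had 9.84, 9.76 and 9.60, H4C11 had 11.4, 7.12 and 8.94, and HIST1H4B had 10.8, 7.09 and 8.0. All 6 sites touched a Pbx4 peak. Their overexpressed fold was above both endogenous folds at H4C3, H4C5 and H2BC4, between them at H4C11 and HIST1H4B, and just below both at H4C8. Histone genes lie in clusters and are near-copies of each other, so reads of one can be placed at another.

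Other kept promoters in both replicates belonged to PLAU, the urokinase plasminogen activator (folds 3.46, 3.55 and 11.5), and VIM, the intermediate filament vimentin (4.65, 9.19 and 5.88). HNRNPU, a nuclear RNA-binding protein, had 6.78, 7.23 and 6.60. Chosen after their values were seen, DEPP1, a gene known to be induced by FOXO factors, had 7.60, 4.91 and 37.2, and NRP1, a receptor of semaphorins and VEGF, had 7.76, 8.01 and 8.41. The promoter of SPOP, a ubiquitin ligase adaptor that is often mutated in prostate cancer, had 9.16, 5.53 and 3.22. The order of these promoters by endogenous fold was thus not their order after overexpression.

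The remaining kept promoters in both replicates, named after their values were seen, differed in which library was highest. CFAP410, a cilia protein (folds 18.2, 11.2 and 5.36, in a window 80.3% identical to itself when shifted), GMDS, an enzyme of GDP-fucose synthesis (17.9, 4.32 and 3.33), STK17A, an apoptosis-related kinase (16.5, 8.90 and 2.73), and SAMD8 (15.1, 7.46 and 6.03) were stronger in replicate 1 than in the other libraries. So was PIM1, a serine/threonine kinase of growth and survival (13.5, 6.80 and 5.32). UTP11, a factor of ribosome biogenesis (8.14, 6.50 and 6.59), and ZFX, a zinc finger activator (7.98, 7.81 and 7.55), had nearly the same fold in all 3 libraries. ROCK2, a kinase of the cytoskeleton (7.62, 6.64 and 9.54), and MLLT1, a reader of the super elongation complex (6.30, 8.37 and 8.59), were a little higher after overexpression. PPP3CB, a catalytic subunit of calcineurin (4.30, 4.84 and 7.80), was so too, while CHMP2A, a subunit of the ESCRT-III complex (2.74, 5.38 and 3.22), was highest in replicate 2. Of all 25 promoters, 16 touched a Pbx4 peak.

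The 18 sites lost in both replicates included some of the strongest endogenous sites. In an intron of RAB19, a Rab GTPase, the fold was 23.1 in replicate 1 and 12.1 in replicate 2, and the nearest overexpressed peak was 60.9 kb away. In an intron of APOLD1 (chr12:12929219-12929640) the folds were 22.5 and 17.4, and the nearest overexpressed peak lay 2.93 kb away. A site in an intron of GRID2IP, nearest to the start of DAGLB, a diacylglycerol lipase (chr7:6543189-6543740), had folds of 19.8 and 15.4. A site in LFNG, a fringe glycosyltransferase that modifies Notch (chr7:2563818-2564165), had 15.5 and 7.32, and one in GPC3, a glypican of the cell surface (chrX:132810544-132810811), had 14.9 and 9.23. The remaining 13 had a replicate 1 fold between 4.27 and 14.6.

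Of these 18, 5 were promoters. IGSF8, an immunoglobulin superfamily membrane protein (chr1:160068346-160068812), had folds of 14.6 and 15.6 with the summit 53 bp upstream of the start site and no overexpressed peak within 25.9 kb. IL17C, an epithelial cytokine, had 9.43 and 7.55, LYNX1 had 7.31 and 7.12, and COL18A1, the collagen that endostatin is cut from, had 6.54 and 7.19. ZNF784 had 4.27 and 6.30 and missed an overexpressed peak by 62 bp. Only 5 of the 18 touched a Pbx4 peak (27.8%, interval 9.69 to 53.5%), among them APOLD1, LFNG and GPC3. The windows of these 18 sites were rich in G and C, at 66.7% ± 13.1 (SD over the 18 sites), against 53.4% ± 12.7 over the 117 sites kept in both.

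Lost promoters that only replicate 1 called were weaker than IGSF8. PAOX, a polyamine oxidase, had a fold of 9.002, PYM1, which recycles exon junction complexes, 8.68, and GRTP1 8.002, followed by CCNQ, a cyclin (6.79, in a window that was 86.4% identical to itself when shifted), TBC1D30 (6.63) and SLC25A10, a mitochondrial dicarboxylate carrier (6.55). None of the 10 lost promoters of highest replicate 1 fold touched a Pbx4 peak. Among other lost sites that only replicate 1 called, the strongest were 94.8 kb upstream of PRR16 (fold 23.5, chr5:119705072-119705376) and 1.75 kb downstream of the start of GH1, the growth hormone gene (fold 19.8, chr17:61993935-61994741). From lost sites to the nearest overexpressed peak the median gap was 8.66 kb. Of 598 lost sites, 288 lay over 10 kb away (48.2%) and 71 under 500 bp away (11.9%). The gaps of genome positions were not measured, so these values do not show whether lost sites lay nearer or farther than other DNA. Within 50 kb the median number of gained peaks was 6 at kept and 3 at lost sites.

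The gained peak of highest fold lay in an exon of PRKAA2, a catalytic alpha subunit of AMP-activated kinase, within its 3′ UTR (fold 51.9, chr1:57176384-57176666). It was followed by a peak 17.8 kb upstream of TGM2, tissue transglutaminase (50.9, chr20:36812613-36812917), 1 upstream of TP53BP2, which binds p53 (48.2), and 1 in an intron of LUZP2 (48.2). In an intron of EGF, the ligand of the EGF receptor (chr4:110842541-110842809), the fold was 47.2. All 12 gained peaks of highest fold, down to 39.7, touched a Pbx4 peak, as did 88.8% of gained peaks in the top 10% of the overexpressed list by fold.

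The strongest gained promoter was that of RBPJ, the DNA-binding effector of Notch signalling, with a fold of 46.7 and its summit 583 bp upstream of the start site (chr4:26344060-26344312). The promoter of CHD1, a chromatin remodeller that is deleted in some prostate cancers (chr5:98264297-98265638), had 44.3. Among those that followed were the promoters of ING3, a subunit of the NuA4 acetyltransferase complex, PRR13 (37.6), MPP4 (33.3), PPP3CA, a catalytic subunit of calcineurin (33.0), DCAF11 (33.0), EXT1, a heparan sulfate polymerase (31.4), AP3M2 (30.9), PDCL (27.98) and MYL11, a fast-muscle myosin light chain (27.6). Of the 12 gained promoters of highest fold, 11 touched a Pbx4 peak, and AP3M2 did not. Among the kept promoters named above, only DEPP1 had an overexpressed fold within their range.

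Some kept sites were as strong after overexpression as the strongest gained peaks. The kept sites of highest overexpressed fold, listed after their values were seen, were in an intron of TMEM45B (chr11:129716969-129717145), where the fold was 4.87 in replicate 1 with no replicate 2 peak and 51.0 after overexpression, in a non-coding gene near LY6S, with 10.6 in replicate 1 and 43.02, and in an intron of XRCC4, a factor of end joining (chr5:82561153-82561389), with 8.34, 11.6 and 41.3. The promoter of OTX1, a homeobox gene, had 4.98 in replicate 1 and 39.3 after overexpression. A site in an intron of PSMB7, a proteasome subunit (chr9:127155114-127155355), had 8.88 and 41.03. All of these touched a Pbx4 peak.

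Endogenous fold said little about overexpressed fold across kept sites. Over the 1928 kept sites called in replicate 1, Spearman's correlation coefficient between the replicate 1 fold and the overexpressed fold was 0.07, and over the 146 called in replicate 2 it was -0.08, while replicates 1 and 2 correlated at 0.57 over the 135 sites that both called. These are descriptions across sites, which share libraries and are not independent replicates. The median overexpressed fold was 7.95 at kept sites and 9.15 at those kept in both replicates. Gained peaks had a median of 6.14 (quartiles 4.89 and 8.05), against 7.90 (5.74 and 11.1) for the 1952 overexpressed peaks at an endogenous site.

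**Figure D1:**
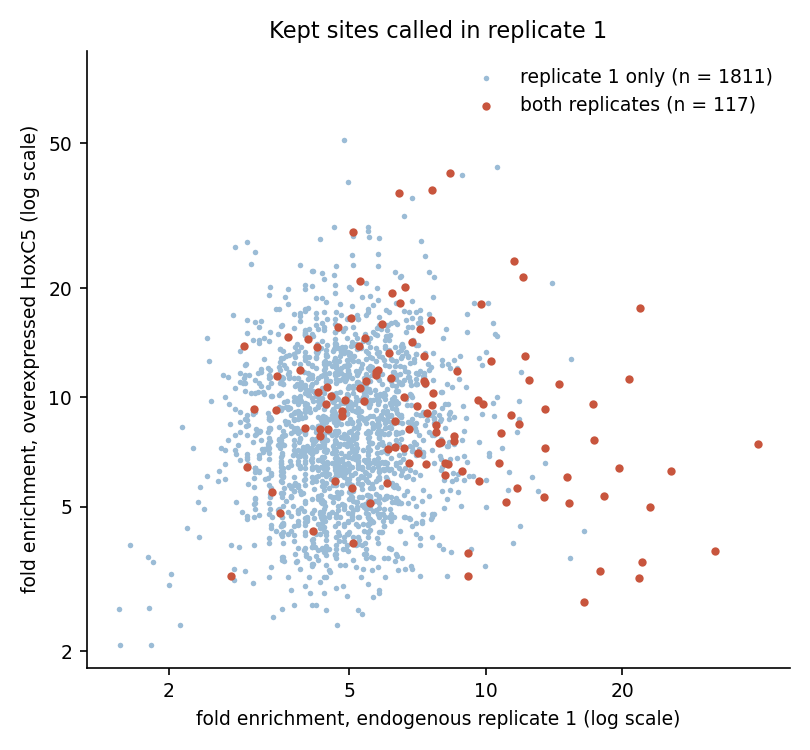
Fold enrichment in endogenous replicate 1 (x axis, log scale) against fold enrichment of the strongest overexpressed peak at the same site (y axis, log scale) for the 1928 kept sites called in replicate 1, each point a site, with the 117 that replicate 2 also called in red. The points form no diagonal (Spearman's correlation coefficient 0.07), and of the 12 sites of highest replicate 1 fold called in both replicates, at the right, only ITPA (17.6) and SLC12A7 (11.2) lie above 10 on the y axis.

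The share of replicate 1 peaks that were kept depended on the measure they were ranked by. Each list was ranked and split into 10 bins of equal size. By q-value, 85.3% of the strongest bin and 90.9% of the next were kept, against 70.2% of the weakest. By fold, 79.8% of the bin of highest fold and 91.7% of the bin of lowest fold were kept, with the least, 68.7%, in bin 4. Kept and lost replicate 1 sites accordingly had median folds of 4.93 and 5.22 but median −log10 q of 5.25 and 4.16. On the overexpressed side, 10.6% of the bin of lowest q met an endogenous site, against 1.24% of the weakest bin. Replicate 2 peaks were split into 5 bins of 34, of which 28 peaks were kept in the bin of lowest q and 32 in the bin of highest q.

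All sets held more promoters than the genome does. A promoter, a summit within 1 kb of a start site of a protein-coding gene, made up 23.7% of kept sites (interval 21.8 to 25.7%), 14.5% of lost sites (11.8 to 17.6%) and 20.5% of gained peaks (20.2 to 20.8%), against 2.56% of 56715 genome positions taken every 50 kb. The replicates did not share the order of kept and lost: 23.8% and 14.5% in replicate 1, but 20.0% (29 of 145) of kept and 7 of 25 lost peaks in replicate 2, and the share of lost sites was the higher also where the overexpressed list was cut to its 5000 peaks of lowest q (24.8% against 11.5% of kept). Introns of protein-coding genes held 35.5% of kept, 37.1% of lost and 37.1% of gained sites, and 41.5% of genome positions. Intergenic sites made up 26.1%, 31.8% and 26.7%, and 37.4% of the genome. Exons outside promoters held 1.89%, 2.84% and 2.48%, against 2.32% of genome positions. The summit lay in a 5′ UTR at 5.62% of kept, 3.01% of lost and 4.93% of gained sites, which in the genome is 0.312%. Weak overexpressed peaks were the more often at promoters, 30.0% of the bin of highest q against 11.6% of the bin of lowest q.

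Pbx4 peaks of the Pbx4-overexpressing cells met 81.1% of kept sites (interval 79.3 to 82.8%), 39.1% of lost sites (35.2 to 43.2%) and 67.3% of gained peaks (66.9 to 67.6%). Kept above gained above lost was the order in replicate 1 (80.9%, 67.3%, 38.7%), in replicate 2 (88.3%, 67.7%, 10 of 25) and under all 11 alternative settings. Away from promoters, 92.6% of kept, 42.1% of lost and 75.02% of gained sites touched a Pbx4 peak, and at promoters 44.2%, 21.8% and 37.2% did. Among gained peaks the share went from 92.1% in the bin of lowest q to 51.2% in the bin of highest q. The Pbx4 list is long, with 153551 peaks, and comes from 1 library of other cells, so these shares do not say that the proteins shared a site in 1 cell.

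The words within 50 bp of the summit differed between the sets. The AP-1 word TGACTCA was in 18.8% of kept windows (interval 17.1 to 20.6%), 6.69% of lost (40 of 598), 20.4% of gained (20.1 to 20.7%) and 1.52% of genome windows of the same length. Among the 1957 gained peaks of lowest q it reached 30.0%. The Hox-Pbx composite word TGATTNAT, added after the printed windows were seen, was in 3.47% of kept (2.71 to 4.38%), 0.334% of lost (2 of 598), 5.91% of gained (5.73 to 6.10%) and 2.18% of genome windows. It reached 17.9% (16.3 to 19.7%) among the 1957 gained peaks of lowest q. LUZP2, EGF, GRAMD2B and CHD1 above hold it, but the word was added after such windows were seen. Its share there is therefore no independent evidence. The words TGATTGAT and TGATTAAT, sought from the start, were in 4.04% and 2.40% of the same peaks. The order of kept and gained windows depended on the summit and the replicate. Kept windows were centred on the endogenous summit, and centred on the overexpressed summit, as gained windows are, they held the AP-1 word at 22.6% (20.7 to 24.5%) and the Hox-Pbx word at 5.16% (4.22 to 6.24%). Kept peaks of replicate 2 held the AP-1 word at 15.9% (23 of 145) and the Hox-Pbx word at 7.59% (11 of 145). From the strongest to the weakest of the 10 bins of gained peaks it went from 12.9% to 2.75%, and the AP-1 word from 30.3% to 11.8%.

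The Hox word TAATGA showed the same split, with 3.73% of kept, 2.01% of lost and 8.51% of gained windows, 15.3% of the gained peaks of lowest q and 6.61% of the genome. The Meis word TGACAG was in 5.93%, 5.35% and 7.92%, 13.2% of the gained peaks of lowest q and 5.94% of the genome. Kept and lost windows thus held TAATGA less often than genome windows, which are poorer in G and C (41.0% on average against 53.9% in kept, 52.8% in lost and 50.5% in gained windows). A window of another base composition holds a word of A and T more or less often by its composition alone, and this part was not tested.

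In the merged sites, the E-boxes, the forkhead word and the GC box were more frequent in kept and in lost windows than in gained ones. The E-box CAGGTG was in 16.7% of kept (15.1 to 18.4%) and 22.6% of lost windows (19.3 to 26.1%), but in 7.68% of gained and 7.69% of genome windows, and in 7 of the 18 windows lost in both replicates, LFNG among them. The forkhead word GTAAACA was in 6.69% of kept, 4.35% of lost, 2.93% of gained and 1.52% of genome windows. The GC box CCCCGCCC was in 6.23%, 5.35%, 2.67% and 0.287%, and in 6 of the 18 windows lost in both, as at IGSF8. Centred on the overexpressed summit, kept windows held CAGGTG at 13.6%, the forkhead word at 5.26% and the GC box at 5.11%. These shares were lower than at the endogenous summit but still above those of gained windows. The ETS word CCGGAAG was in 3.47%, 0.669%, 2.19% and 0.245%, and the TEAD word CATTCC in 9.10%, 6.52%, 9.05% and 5.52%. Outside promoters the E-box was in 19.2% of kept, 24.1% of lost and 7.93% of gained windows, and the GC box in 1.74%, 2.15% and 0.852%, so both were more frequent in kept and lost than in gained windows there too. The remaining words differed less between kept and lost windows. The E-box CACGTG was in 3.58%, 3.34%, 1.71% and 0.816% of kept, lost, gained and genome windows, the CCAAT box in 12.5%, 12.7%, 13.9% and 15.0%, and the Hox word TAATTA in 1.48%, 1.00%, 2.03% and 4.31%. In replicate 2 alone, CACGTG was in only 1 of 145 kept and 0 of 25 lost peaks, so its excess over gained windows rests on replicate 1. The CRE word TGACGTCA was in 7 kept windows, in 0 of 598 lost windows (interval up to 0.615%) and in 0.368% of gained windows, against 0.0388% of the genome. TGATTGAT and TGATTAAT, both cases of the Hox-Pbx word and both sought from the start, were in 0.797% and 0.819% of gained windows. Genome windows held them at 0.413% and 0.458%. Kept windows lay below the genome, with 6 of 1957 (0.307%) for each word, and lost windows held 0 and 2 of 598. The higher share of TGATTNAT in kept than in genome windows thus does not come from these 2 words. A word is only those letters in the window and not a measured site of any factor.

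By nearest start site, kept sites gathered around a few loci that were also dense in gained peaks. NRP1 and MYC, the growth-promoting transcription factor, were each nearest to 10 kept sites and to no lost one, with 59 and 76 gained peaks. At NRP1 the replicate 1 fold of the 10 sites ran from 2.32 to 7.76 and the overexpressed fold from 4.13 to 11.8, replicate 2 called 2 of the 10, and all touched a Pbx4 peak. At MYC the 10 sites lay from 4.66 to 439 kb from the start site, with folds of 3.77 to 5.73 in replicate 1 and 7.40 to 18.0 after overexpression. All 10 touched a Pbx4 peak, as did 92.6% of all kept sites away from promoters. KCNMA1, a large-conductance potassium channel, was nearest to 8 kept sites and 72 gained peaks. SOX9, a factor of epithelial progenitors, had 7 and 70, ZMIZ1, a coactivator of the androgen receptor, 7 and 33, and RIPK4, a kinase of keratinocyte differentiation, 7 and 22. The most gained peaks lay nearest to ADGRL3, a latrophilin (79, with 2 kept sites). NR2F1, an orphan nuclear receptor, had 66 with no endogenous site. RUNX1 had 66 with 1 kept site, HAS2, a hyaluronan synthase, 66 with 3, and JAG1, a Notch ligand, 61 with 2. Genes with wide surroundings collect more peaks: the DNA nearest to ADGRL3 was 3.93 Mb, against a median of 0.06 Mb per gene, and per Mb it held 20.1 gained peaks, near the 21.5 of all genes, while RUNX1 had 86.7, JAG1 82.4 and NRP1 77.1. NRP1 and KCNMA1 lie on chromosome 10, whose kept sites had the lowest median replicate 1 fold (3.98) but the highest median overexpressed −log10 q (36.9). On chromosome 8, which holds MYC, these medians were 4.78 and 28.9. Whether more reads in these regions raised the number of sites was not tested.

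Gene groups were read against all 19748 protein-coding genes, of which 7.62% were nearest to a kept site, 2.88% to a lost site and 70.8% to a gained peak. At promoters 2.28% had a kept site, 0.435% a lost one and 46.7% a gained peak. Of 36 genes of the TGF-β pathway, 14 were nearest to a kept site (38.9%) and 33 to a gained peak (91.7%), while 4 were nearest to a lost site (11.1%), so that all 3 shares were above those of all genes. In both replicates 3 genes had a site. These were in an intron of TGFB2, a ligand (folds 4.24, 6.48 and 13.8), upstream of BMP4, another ligand of the family (6.48, 4.73 and 18.2), and upstream of SMURF2, a ligase that targets Smad proteins (7.65, 4.36 and 10.3). SMAD2, SMAD3 and SKIL, a Smad corepressor, had kept promoter sites. The list was chosen with results of these data known and its count is no independent evidence about the pathway. Its genes also sit in wide surroundings, with a median of 0.16 Mb against 0.06 Mb over all genes.

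Of 34 genes of actin and focal adhesions, 12 were nearest to a kept site (35.3%) all 34 to a gained peak and 4 to a lost site (11.8%), with kept promoters at ACTB, ACTG1, ACTN1 and CAPZB. Of 17 AP-1 family genes 5 were (29.4%): FOSL1, JUND and ATF3 through their promoters, JUNB, and JUN with 3 kept sites and 24 gained peaks. Of 22 EMT regulators and cadherins 6 were (27.3%): VIM, the repressor SNAI2, the cadherins CDH2 and CDH11, OVOL1, and EPCAM, which was also nearest to a lost site. Of 17 prostate luminal and androgen response genes 4 were (23.5%), of which TMPRSS2, an androgen-induced protease, had a site in both replicates (folds 6.60, 5.38 and 7.23). None of this group had a kept promoter site, and HOXB13 was nearest to a lost site. Their shares with a gained peak (64.7%) and a gained promoter peak (41.2%) were below the 70.8% and 46.7% of all genes. Of 13 TALE cofactors 3 were nearest to a kept site (23.1%), among them PBX3 and TGIF1, with 7 and 31 gained peaks.

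In other groups kept shares were lower than in those above, but all were higher than the 7.62% of all genes. The median surroundings of these groups ran from 0.0582 Mb (unfolded protein and stress response) to 0.191 Mb (EGF receptor family), against 0.06 Mb over all genes. They were 5 of 25 for the unfolded protein and stress response (20.0%), 6 of 30 for class I HDACs and corepressors (20.0%), 5 of 26 for NF-κB and inflammation (19.2%), 8 of 44 for WNT (18.2%), 8 of 51 for forkhead factors (15.7%) and 2 of 13 for the MYC and MAX network (15.4%). They were 6 of 42 for integrins and laminins (14.3%), 3 of 22 for YAP and TEAD (13.6%), 3 of 23 for invasion proteases (13.0%) and 2 of 16 for the EGF receptor family. In these groups IL6R, the interleukin-6 receptor (5.74, 6.50 and 11.6), and MMP10, stromelysin 2 (4.43, 6.49 and 9.58), had a site in both replicates, as had PLAU, given above, and MYC, 149 kb upstream (5.73, 7.51 and 11.7). HDACs and corepressors had the largest share of genes nearest to a lost site of the 26 groups, 7 of 30 (23.3%, against 2.88% of all genes). HDAC1, SIN3A and TLE3 were among the genes. This group was singled out as the largest of 26, and its kept share was above that of all genes too. None of its genes had a site in both replicates, and its median surroundings were 0.0899 Mb.

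Housekeeping groups had gained promoter peaks at more of their genes than the 46.7% of all genes, while their kept shares lay on both sides of 7.62%. Aminoacyl-tRNA synthetases had a gained promoter peak at 19 of 20 genes (95.0%) and no kept site. Cytosolic ribosomal proteins had 73 of 84 (86.9%) and kept sites at 3 genes (3.57%), none at a promoter. Proteasome genes had 33 of 39 (84.6%) and 2 kept (5.13%), the spliceosome 58 of 69 (84.1%) and 7 (10.1%, all 7 at the promoter), cell cycle and replication genes 25 of 31 (80.6%) and 3 (9.68%), and mitochondrial ribosome and respiratory chain genes 116 of 157 (73.9%) and 8 (5.10%). Zinc finger genes had 294 of 508 (57.9%) and 21 (4.13%), and telomerase and shelterin genes 12 of 16 and 1 kept site, nearest to TERT. The 39 HOX genes had a gained promoter peak at 20 (51.3%, near the 46.7% of all genes). A kept site was nearest to HOXA10 and HOXA6, and a lost site to HOXB1 and HOXB13. At HOXC5 itself, the introduced gene (chr12:54426834-54429145), 1 gained peak of fold 4.44 lay just inside the start of the gene (chr12:54426889-54427499). The overexpressing cells also carry the introduced copy, whose reads can be placed at this gene. Binding at the cell's own HOXC5 therefore cannot be told apart from reads of the construct here. Medians of the surroundings of these groups were below the 0.06 Mb of all genes, by differing amounts. They were 0.0186 Mb for ribosomal proteins, but 0.0493 Mb for aminoacyl-tRNA synthetases and 0.0527 Mb for cell cycle and replication genes, near that of all genes. The groups with the highest kept shares sit in wider ones. Their medians were 0.16 Mb for the TGF-β pathway, 0.104 Mb for actin and focal adhesions and 0.0731 Mb for the AP-1 family. EMT regulators and cadherins had 0.142 Mb and TALE cofactors 0.313 Mb. A gene with more DNA around it is more often nearest to a site.

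At the edge of the rule, the 5 kept sites of smallest overlap shared 1 bp (upstream of PAX9), 2 bp (promoter of ADRM1), 3 bp (AGRN), 4 bp (CFAP410) and 13 bp (PRR4) with an overexpressed peak. The 5 lost sites closest to one missed it by 4 bp (BCOR), 7 bp (SCAF4), 20 bp (upstream of CCNF), 22 bp (TMEM255B) and 22 bp (MTHFD1). At most kept sites the overlap was wide, with a median of 187 bp shared and summits 49 bp apart.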

How the data were processed

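The data were ChIP-Seq peak lists of PC-3 cells, 1 list per library and none pooled: 2 of endogenous HoxC5, 1 of HoxC5 after its overexpression and 1 of Pbx4 after Pbx4 overexpression. The authors aligned reads to hg19 with BWA-MEM, kept those above a mapping quality limit, used SAMtools to take out duplicates, and obtained peaks with MACS2, whose control is not given in the sources used here. The deposited columns are the fold enrichment at the summit (a ratio), the −log10 of the p-value and of the q-value, and an integer score made from the q-value, all given by the authors' peak caller. The score was not used in any result. Read totals per library are not in the lists, so depth is unknown and the exact Clopper-Pearson intervals (95%) cover counting error only.

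Peaks off chromosomes 1-22 and X were left out (5 in replicate 1, 27 in the overexpressed list). Endogenous peaks that overlapped were merged, and overlap with an overexpressed or Pbx4 peak needed 1 bp. Summits were classed against protein-coding genes of GENCODE release 44 on GRCh37, with a promoter within 1 kb of any start site, and each site was given its nearest start site. Where several peaks met a site, the strongest in that library gave the fold. Windows reached 50 bp either side of the summit, and genome windows were taken every 50 kb. There were 14 words sought, and TGATTNAT was added after windows were seen, as were the counts of windows that repeat themselves, the counts by chromosome and the kept sites by overexpressed fold. The named genes are, per set, up to 12 sites of highest fold (those called in both replicates for kept and lost), promoters of the same kind, the genes nearest to most sites, and list members with a site in both replicates. The members and the 26 gene lists were chosen with earlier results of these data known. No test was possible with 1 overexpressed library. Python 3.11.15, numpy 2.4.6, pandas 2.3.3, scipy 1.17.1, pysam 0.24.0 and matplotlib 3.10.9 were used. The interval functions were tested on simulated data, where 20 of 20 runs matched a direct count. Some items among the named sites are not reported here.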

Additional observations from a re-analysis of the deposited data

How the results depend on the processing

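No paired analysis was possible because the overexpressed side has 1 library and no test was made. Of 97 values under other settings, 43 stayed within 1 SD between the replicates and 54 moved. That SD is over only 2 values, the results without replicate 1 and without replicate 2, and both are among the 97. It ran from 0.0714 percentage points for the promoter share of gained peaks to 9.53 for that of lost sites. It holds no spread of the overexpressed side, so the count of moves is no measure of error. The cause of each move was not tested beyond what the setting itself changes, the number of peaks or the definition. In this paragraph, kept and gained shares are of endogenous sites and overexpressed peaks, and promoter and Pbx4 shares are given for kept, lost and gained sites. With a fold of at least 5 in every list, 61.4% were kept, with promoter shares of 19.9% (kept) and 18.3% (gained) and Pbx4 shares of 75.8%, 37.1% and 60.3%. With a q-value of at most 0.01 in every list, the Pbx4 share of gained peaks was 66.8%. With overexpressed peaks of −log10 q of at least 10, 59.8% were kept, promoter shares were 19.4%, 24.7% and 16.5%, and Pbx4 shares were 49.0% (lost) and 77.6% (gained). With the 5000 overexpressed peaks of lowest q, 24.1% were kept and 87.8% gained, promoter shares were 11.5%, 24.8% and 10.8%, and Pbx4 shares 94.7%, 63.8% and 93.5%. With as many overexpressed peaks as endogenous sites, 15.0% were kept and 85.2% gained, promoter shares were 10.4%, 23.5% and 10.4%, and Pbx4 shares 97.4%, 66.7% and 94.7%. With 50% of each interval shared, 39.5% were kept, promoter shares were 19.9%, 22.6% and 20.6%, and the Pbx4 share of lost sites was 65.7%. With the endogenous summit inside the overexpressed peak, the Pbx4 share of lost sites was 42.3%. With gaps up to 500 bp allowed, the promoter share of gained peaks was 20.4% and the Pbx4 share of lost sites 38.1%. With sites in both replicates only, 86.7% were kept and 99.8% gained, promoter shares were 27.8% (lost) and 20.6% (gained), and Pbx4 shares 27.8% (lost) and 67.7% (gained). Promoters within 0.5 kb gave 16.9% (gained), within 2.5 kb 27.7% (kept) and 25.6% (gained), and start sites of all annotated genes 32.3%, 24.2% and 27.8%. Leaving out replicate 2 or replicate 1 gave kept shares of 76.5% to 85.3%, gained shares of 97.1% to 99.8%, promoter shares of 20.0% to 23.8% (kept), 14.5% to 28.0% (lost) and 20.5% to 20.6% (gained), and Pbx4 shares of 80.9% to 88.3% (kept), 38.7% to 40.0% (lost) and 67.3% to 67.7% (gained). The promoter share of kept sites was above that of lost sites in 8 of 14 settings and below it in 6, while the order kept, gained, lost of the Pbx4 share held in all 11. The setting without repeats was not run, since the reference used here does not mark them. Replicate 2 called 170 peaks, so nearly all endogenous sites rest on replicate 1, and the length of each list limits every share.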

Other observations

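Kept, lost and gained sites were all spread unevenly over chromosomes. Chromosome 17 held 6.39% of kept, 4.52% of lost and 3.90% of gained sites, and 2.74% of genome positions. On chromosome 4 lay 2.10% of kept, 3.01% of lost and 5.21% of gained sites, and 6.62% of positions. For the X chromosome these shares were 1.33%, 1.67%, 2.77% and 5.33%. On chromosome 10, with 115 kept sites, the median replicate 1 fold of kept sites was 3.98, the lowest of any chromosome, while the median −log10 q of their overexpressed peaks was 36.9, the highest. Of the 117 sites kept in both replicates, 16 were on chromosome 3 and 13 on chromosome 10.

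Some windows repeated themselves: the window at the site upstream of CCNF, the kept site of highest replicate 1 fold, was 91.0% identical to itself when shifted by 10 to 50 bp. Identity of at least 80% was found in 5 of 1957 kept windows (0.255%), 10 of 598 lost windows (1.67%, interval 0.805 to 3.05%), 40 of 65217 gained windows (0.0613%) and 100 of 56715 genome windows (0.176%). Of the 18 sites lost in both replicates, those at CFAP74 (81.4%) and MAFA (92.1%) passed it, and so did the lost promoter of CCNQ (86.4%) and the kept promoter of CFAP410 (80.3%). The part of such repeats in the fold of these sites was not tested.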
